A study of Mus musculus with 4 samples.

Results

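The 10 genes described here encode the transcription factor NF-kappaB and the proteins it induces to restrain or redirect itself. They form a list of gene symbols, with no threshold on a measured value. Nfkb1, Nfkb2, Rel, Rela and Relb are the DNA-binding subunits, Nfkbia, Nfkbiz, Nfkbid and Bcl3 belong to the IkappaB family, and Tnfaip3 encodes the ubiquitin-editing enzyme A20. All 10 of 10 were among the 10941 genes listed, and all 10 passed the filter on low counts that left 8753 genes for testing.

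The source was mouse adipose tissue, from which group 2 innate lymphoid cells (ILC2) were sorted for 4 RNA-seq libraries. ILC2 are tissue-resident lymphocytes that lack rearranged antigen receptors and secrete type 2 cytokines. All mice carried the Il5RFP-cre allele R5 on 1 chromosome (R5/+), so that Cre is made in cells that express Il5. In the knockout it deletes floxed Rptor, and the controls are R5/+ with Rptor+/+. Raptor, the product of Rptor, is the scaffold that defines the growth-sensing kinase complex mTORC1. Library names give 2 WT and 2 KO libraries, but every sample title gives the opposite Rptor genotype. Groups are therefore named after the libraries, WT-named and KO-named, and positive log2 fold changes mean higher levels in the KO-named ones. Replicates are numbered as in the deposited table, 1 and 3 per group. Neither the animals' age nor whether libraries came from separate animals is given in the sources used here, so p-values reflect the spread of these libraries alone, which could be technical.

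Library totals lay between 15258780 and 18856218 counts. Rptor did not settle the labels. Its level was 14.5 and 76.8 CPM (counts normalised to library size with TMM factors) in WT-named replicates 1 and 3, and 0.971 and 33.9 CPM in KO-named replicates 1 and 3. All 14 ILC2 markers examined had reads in every library, summing to 14101 to 18068 CPM. So did all 11 mast cell markers, summing to 6924 to 11038 CPM, and NF-kappaB genes are used by mast cells as well as ILC2. Of 10 T cell markers 3 were listed, summing to 101 to 242 CPM. The part of mast cells or T cells in the levels below was not tested. Of 11 stromal markers, 4 were listed, with a summed level of 1016 CPM in KO-named replicate 1 and 0.587 to 7.67 CPM in the other libraries. In KO-named replicate 1 Gsn, Col1a2 and C7 were at 599, 225 and 191 CPM. Pdgfrb did not go with them, at 0.224 CPM there and 2.09 CPM in WT-named replicate 3. Col1a1, Col3a1, Dcn, Lum, Pdgfra, Mgp and Serping1 were not listed. In bulk samples fewer cells of a type and less RNA per cell cannot be told apart.

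In resting cells NF-kappaB dimers are held in the cytoplasm by IkappaB proteins. In ILC2 the alarmin interleukin-33 acts through its receptor ST2 and the adaptor MyD88 on the IkappaB kinase complex, IkappaBalpha is degraded, and freed dimers enter the nucleus and drive cytokine genes. Dimers also induce Nfkbia and Tnfaip3, whose products close the signal, and the atypical nuclear IkappaB proteins encoded by Nfkbiz, Nfkbid and Bcl3, which act on dimers bound to DNA.

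The DNA sequence that the dimers bind is called a kappaB site. RefSeq promoters (GRCm38.p6, from 250 bases before to 50 after each start site) were at hand for 7 of the 10 genes, with 12 start sites among them. Each of the 7 genes had at least 1 match on either strand to a loose motif (GGG, 5 bases of any kind, then CC), but so did 71.8% of the 7072 tested genes with a promoter. A stricter motif (GGGA, any base, TT, any base, then CC), whose matches are all matches of the loose one too, was in a promoter of 5 of the 7 genes, namely Nfkb2, Rel, Nfkbia, Nfkbid and Bcl3, and of 1.70% of those tested genes. Rela and Tnfaip3 had no match of these letters in this window. A match describes the sequence and does not show that a factor binds there.

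The matches are printed because they mark which members carry a close kappaB sequence, with the match in capitals and 10 bases on either side, 5′ to 3′ on the gene's own strand. Those of Bcl3, Rel and Nfkbia match on the opposite strand, and the first of Nfkb2 on both.
Nfkb2, chr19:46304688-46304717 (+): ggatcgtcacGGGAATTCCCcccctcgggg
Nfkb2, chr19:46305695-46305724 (+): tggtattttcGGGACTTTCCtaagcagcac
Rel, chr11:23771042-23771071 (-): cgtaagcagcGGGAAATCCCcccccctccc
Nfkbid, chr7:30422170-30422199 (+): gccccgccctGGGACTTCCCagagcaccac
Bcl3, chr7:19822734-19822763 (-): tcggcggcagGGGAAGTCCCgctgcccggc

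Nfkbia, the textbook case of such feedback, has its match 29 bases before the start site. Its whole promoter (chr12:55492598-55492897, minus strand) is given with the match in capitals.
Nfkbia: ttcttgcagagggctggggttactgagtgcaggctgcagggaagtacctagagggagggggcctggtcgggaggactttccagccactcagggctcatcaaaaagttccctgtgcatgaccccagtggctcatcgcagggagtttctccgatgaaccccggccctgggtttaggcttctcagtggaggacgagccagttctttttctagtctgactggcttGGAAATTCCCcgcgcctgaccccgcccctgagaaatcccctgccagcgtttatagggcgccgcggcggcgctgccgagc

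The feedback genes, more than the subunits, made up the NF-kappaB transcripts. Levels between genes were compared per length, as TPM computed here from the counts and the longest annotated transcript of each gene. Nfkbiz led with a mean of 2462 TPM ± 335 (SD over the 4 libraries), followed by Nfkbia at 2314 TPM ± 559 and Tnfaip3 at 1781 TPM ± 347. The ranges of these 3 genes overlapped. With these lengths Nfkbia exceeded Tnfaip3 in all 4 libraries, and Nfkbiz exceeded Nfkbia in 3. In every library all 3 ranked between 39 and 134 among 10619 genes by TPM.

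Nfkb1 came next, at 1334 TPM ± 470.2, and was below Tnfaip3 in 3 libraries and above it in KO-named replicate 1. Nfkbid followed at 606 TPM ± 236, below Nfkb1 without overlap of their ranges. Rel stood at 191 TPM ± 77.4, again without overlap. Nfkb2, Rela and Relb were low, at 105 TPM ± 48.8, 70.6 TPM ± 26.2 and 37.8 TPM ± 26.3, each overlapping its neighbour in this order. Bcl3 was scarce, at 6.66 TPM ± 6.10. With the median length over annotated transcripts the same 3 genes led in another order. Means were then 2066 TPM for Tnfaip3, 1526 TPM for Nfkbia and 1305 TPM for Nfkbiz, and Tnfaip3 exceeded Nfkbia in every library. The order of these 3 genes thus depends on the length chosen. Rela, at 116 TPM, then stood above Rel, at 90.9 TPM, so the order of these 2 subunits is not settled either.

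**Figure D1:**
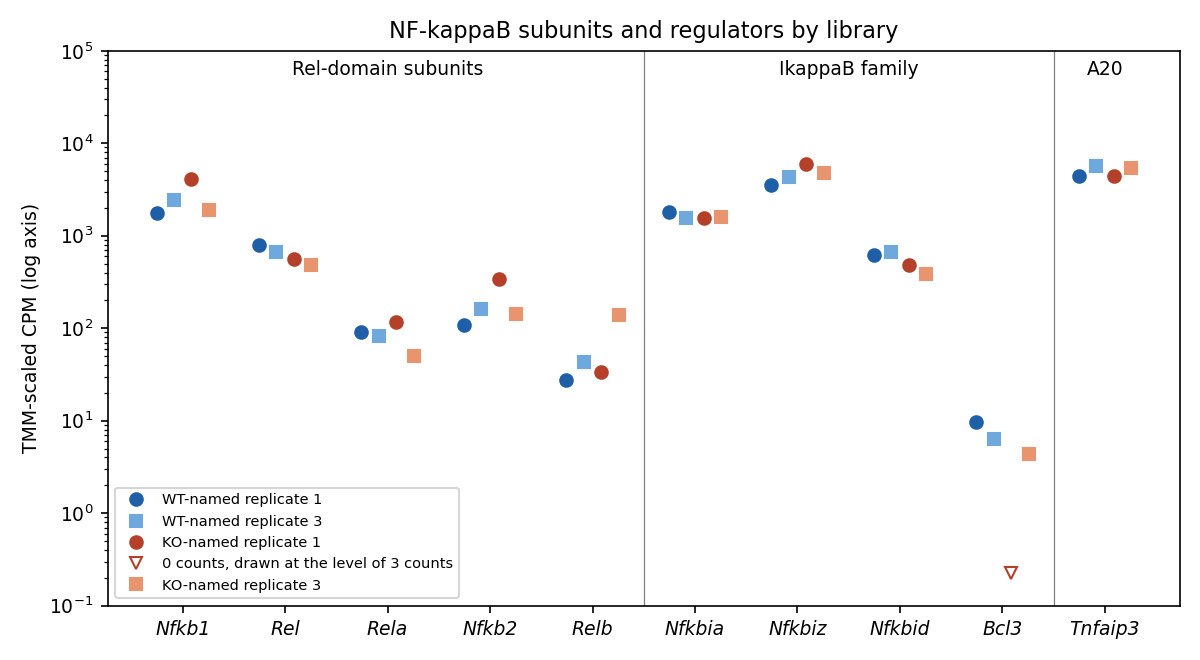
TMM-scaled CPM (log axis) of the 10 genes, with 1 point per library, WT-named in blue and KO-named in red, and the count of 0 drawn as an open triangle at the level of 3 counts. Rel, Nfkbid and Bcl3 lie lower and Nfkbiz higher in both KO-named libraries, while Nfkb1 and Nfkb2 stand out in KO-named replicate 1 and Relb in KO-named replicate 3.

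None of the 10 genes passed the test between the groups. By edgeR's quasi-likelihood test with Benjamini-Hochberg adjustment 0 of 10 had an adjusted p below 0.05, as did 0% of the 8753 genes tested. At an unadjusted p below 0.05 the count was also 0 of 10, where 9.81% of all tested genes passed, and the smallest unadjusted p among the members was 0.165, for Nfkbiz. DESeq2 called 8.7% and limma-voom 2.3% of their tested genes, and 0 of the 10 each. Nfkbiz was higher in each KO-named library than in either WT-named one, and 3 members, Rel, Nfkbid and Bcl3, were lower in each. Over all tested genes these shares were 17.8% and 22.1%, so 4 of 10 without overlap is near the 39.8% of the background. By library size alone 5 of 10 were lower in each KO-named library, Nfkbia and Tnfaip3 joining Rel, Nfkbid and Bcl3, and 0 higher, where 28.6% of all tested genes were lower and 12.2% higher. Without KO-named replicate 1 the count was 6 of 10, where 74.1% of all genes did not overlap.

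Among the subunits, Nfkb1 (Entrez 18033, chromosome 3, 135584655 to 135691969, mm10) encodes p105, the precursor of p50, which pairs with RelA or c-Rel. It was at 1781 and 2431 CPM in WT-named replicates 1 and 3, and at 4072 and 1909 CPM in KO-named replicates 1 and 3. KO-named replicate 1 was high and the other 3 libraries lay close together, so the groups overlapped. The KO-named mean was higher by 0.51 on the log2 scale (SE 0.40, edgeR adjusted p = 0.801), and −0.13 without KO-named replicate 1. In the fit without that library the median over all genes was −0.27. With all 4 libraries the 95% interval of Nfkb1 ran from 0.770-fold to 2.62-fold.

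Nfkb2 (Entrez 18034, chromosome 19, 46300994 to 46312400) encodes p100, the precursor of p52 in the alternative pathway. Its levels were 109 and 163 CPM in WT-named replicates 1 and 3, and 338 and 142 CPM in KO-named replicates 1 and 3. As with Nfkb1 the high library was KO-named replicate 1, and the groups overlapped. Its log2 fold change was 0.82 (SE 0.62, edgeR adjusted p = 0.776) and 0.07 without that library. Nfkb1 and Nfkb2 had the second most alike profiles of the 45 pairs of members, with a distance of 0.32 between their log2 CPM centred over the 4 libraries. KO-named replicate 1 is also the library where the stromal markers Gsn, Col1a2 and C7 were high, and the part of stromal cells in these levels was not tested.

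Rel (Entrez 19696, chromosome 11, 23736847 to 23770969) encodes c-Rel, a subunit with a transactivation domain that is prominent in lymphocytes. It measured 803 and 662 CPM in WT-named replicates 1 and 3, and 554 and 479 CPM in KO-named replicates 1 and 3. Both KO-named libraries were lower, without overlap. The difference was −0.50 on the log2 scale (SE 0.39, edgeR adjusted p = 0.788), with a 95% interval from 0.389-fold to 1.28-fold. It stayed between −0.60 and −0.38 when any 1 library was left out.

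Rela (Entrez 19697, chromosome 19, 5637442 to 5648134) encodes p65, the main transactivating partner of p50. Levels of 91.8 and 81.7 CPM in WT-named replicates 1 and 3 were enclosed by 117 and 50.2 CPM in KO-named replicates 1 and 3. The KO-named libraries were thus the highest and the lowest. Their difference of −0.05 in log2 fold change (SE 0.85, edgeR adjusted p = 0.992) became −0.78 without KO-named replicate 1 and 0.43 without KO-named replicate 3. The 95% interval, from 0.260-fold to 3.59-fold, spans both directions.

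Relb (Entrez 19698, chromosome 7, 19606217 to 19629438) encodes RelB, the partner of p52. It was at 27.7 and 42.7 CPM in WT-named replicates 1 and 3, and at 34.0 and 138 CPM in KO-named replicates 1 and 3. A single library, KO-named replicate 3, was high, and the other KO-named library lay between the WT-named ones. The log2 fold change was 1.29 (SE 1.10, edgeR adjusted p = 0.837), −0.07 without KO-named replicate 3 and 1.98 without KO-named replicate 1. Over all genes the medians were −0.28 without KO-named replicate 3 and −0.27 without KO-named replicate 1. RelB is abundant in dendritic cells, so markers of macrophages and dendritic cells were examined together. Of 12 macrophage and dendritic cell markers 2 were listed, Adgre1 and Cd68, with a summed level of 2.02 and 12.98 CPM in WT-named replicates 1 and 3 and of 29.3 and 32.7 CPM in KO-named replicates 1 and 3. Itgax, Flt3, H2-Ab1 and Cd74 were among the markers not listed, so the content of dendritic cells cannot be read from these values. The part of either cell type in the Relb level was not tested.

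Of the IkappaB family, Nfkbia (Entrez 18035, chromosome 12, 55489409 to 55492647), which encodes IkappaBalpha, the inhibitor that is degraded and resynthesised in each round of signalling, varied least of the members in TMM-scaled CPM. Its levels were 1798 and 1560.3 CPM in WT-named replicates 1 and 3, and 1568 and 1609.7 CPM in KO-named replicates 1 and 3. The highest library was 1.15-fold above the lowest, and the groups overlapped. By library size alone they did not, with 2155 and 1628 CPM in WT-named replicates 1 and 3 against 1376 and 1455 CPM in KO-named replicates 1 and 3, a wider spread than that of Nfkbiz on that scale. The difference with TMM was −0.08 on the log2 scale (SE 0.32, edgeR adjusted p = 0.974), and the 95% interval ran from 0.578-fold to 1.55-fold.

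Nfkbiz (Entrez 80859, chromosome 16, 55811375 to 55838954) encodes IkappaBzeta, an inducible nuclear protein that co-activates a subset of NF-kappaB targets. It reached 3544 and 4349 CPM in WT-named replicates 1 and 3, and 6007 and 4780.1 CPM in KO-named replicates 1 and 3. Both KO-named libraries were higher, by 0.45 on the log2 scale (SE 0.30, edgeR adjusted p = 0.730) and a 95% interval from 0.859-fold to 2.17-fold. The separation depended on the scaling. By library size alone the levels were 4249 and 4537 CPM in the WT-named against 5271 and 4321 CPM among the KO-named, which overlap.

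Nfkbid (Entrez 243910, chromosome 7, 30421731 to 30428749) encodes IkappaBNS, a nuclear IkappaB protein that binds p50. It was at 624 and 674 CPM in WT-named replicates 1 and 3, and at 477 and 388 CPM in KO-named replicates 1 and 3. Both KO-named libraries were lower, and each pair of replicates lay close together. The log2 fold change was −0.59 (SE 0.40, edgeR adjusted p = 0.733), with a 95% interval from 0.362-fold to 1.23-fold, and it was between −0.73 and −0.46 when any 1 library was left out. Nfkbid and Rel were the pair of members with the most alike profiles, at a distance of 0.30.

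Bcl3 (Entrez 12051, chromosome 7, 19808462 to 19822824), which encodes a nuclear partner of p50 and p52 homodimers, had 213 and 117 counts in WT-named replicates 1 and 3, and 0 and 74 counts in KO-named replicates 1 and 3. These are 9.79 and 6.28 CPM against 0 and 4.34 CPM. Both KO-named libraries were lower, but the level was low throughout, and the count of 0 allows up to 0.224 CPM. Its log2 fold change, −1.88, had an SE of 2.29 (edgeR adjusted p = 0.901), and it was −0.87 without KO-named replicate 1.

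Tnfaip3 (Entrez 21929, chromosome 10, 19000910 to 19015410), whose product A20 removes the activating ubiquitin chains upstream of the IkappaB kinases, was the member with the most counts over the 4 libraries. It stood at 4438 and 5744 CPM in WT-named replicates 1 and 3, and at 4377 and 5429 CPM in KO-named replicates 1 and 3. Each group held 1 lower and 1 higher library, and the lower was replicate 1 in both. This overlap also depended on the scaling, since by library size alone the levels were 5320.0 and 5992 CPM against 3841 and 4908 CPM, lower in both KO-named libraries. With TMM, between the groups the log2 fold change was −0.05 (SE 0.30, edgeR adjusted p = 0.982), with a 95% interval from 0.605-fold to 1.53-fold.

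**Figure D2:**
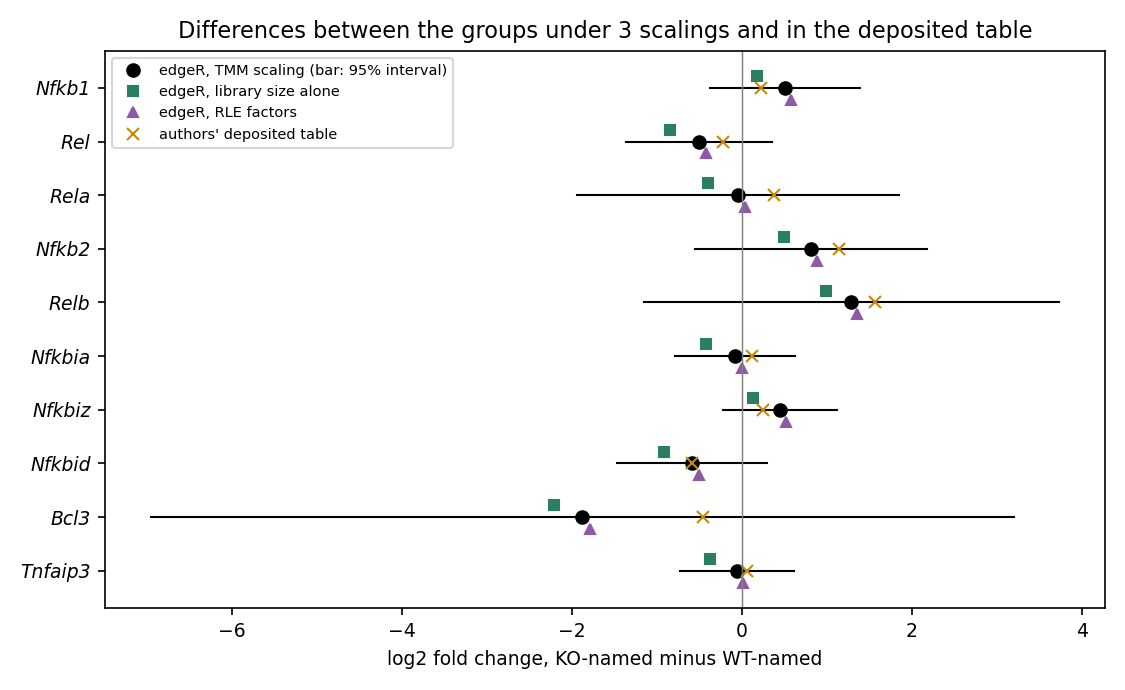
log2 fold change (KO-named minus WT-named) of each gene by edgeR with TMM scaling, with 95% intervals as bars, beside edgeR with 2 other scalings and the authors' deposited value. The deposited value, headed WT-vs-KO, was read in the same direction. Every interval crosses 0, and library size alone shifts all 10 genes to the left.

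The scaling moved all 10 genes together. Over all tested genes the median log2 fold change stood at 0.05 (TMM), 0.13 (RLE factors) and −0.28 (library size alone). Relative to that median Nfkbid was at −0.64, −0.64 and −0.64 under the 3 scalings, Rel at −0.55, −0.55 and −0.57, and Nfkbiz at 0.40, 0.40 and 0.41. Nfkbia was at −0.13, −0.13 and −0.14 and Tnfaip3 at −0.10, −0.11 and −0.09. In the authors' deposited table the q-values of the 10 genes lay between 0.789 and 0.995. Its column header reads WT-vs-KO without saying which group is subtracted, and the values were read as KO-named minus WT-named. On that reading the deposited table gives Rela, Nfkbia and Tnfaip3 small positive log2 fold changes of 0.37, 0.12 and 0.06, opposite in sign to those here. The median over all genes in the deposited table is 0.16.

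**Figure D3:**
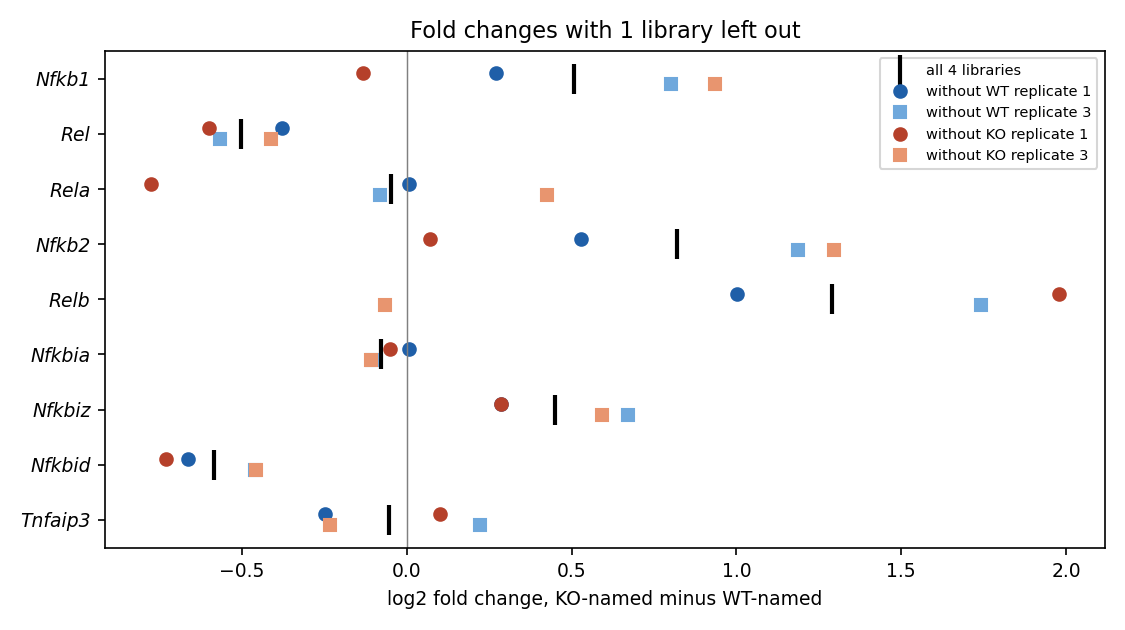
log2 fold change (KO-named minus WT-named) by edgeR for 9 of the 10 genes with all 4 libraries (black tick) and with 1 library left out (coloured points). Bcl3 is not drawn because without KO-named replicate 3 no KO-named count remains. Rel and Nfkbid stay below 0 and Nfkbiz and Nfkb2 above it, whereas Nfkb1, Rela, Relb, Nfkbia and Tnfaip3 cross it. In the fits with 1 library left out the median over all genes lay between −0.28 and 0.23. Crossing 0 is therefore not crossing that median.

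The make-up of the pool within each library does not depend on the scaling between libraries. The 10 genes took 1.59% and 1.64% of all counts in WT-named replicates 1 and 3, and 1.54% and 1.35% in KO-named replicates 1 and 3. Per length, the 4 IkappaB genes and Tnfaip3 together outweighed the 5 subunits in each library. The subunits made up 16.7% and 18.7% of the TPM sum of the 10 genes in WT-named replicates 1 and 3, and 26.1% and 16.1% in KO-named replicates 1 and 3. Nfkb1 alone held 21.4% in KO-named replicate 1 and 11.8% to 14.4% in the other libraries.

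Within the IkappaB family the shares of Nfkbid, Nfkbiz and Bcl3 did not overlap between the groups, and that of Nfkbia did. Among the subunits the share of Rel did not overlap either. In TMM-scaled CPM 39.8% of all tested genes did not overlap, and no such background was computed for shares. Nfkbid gave 8.42% and 8.13% of the TPM sum in WT-named replicates 1 and 3, and 5.10% and 4.92% in KO-named replicates 1 and 3. For Nfkbiz the shares were 23.7% and 26.0%, and 31.8% and 30.0%, in the same order. The TPM ratio of Nfkbiz to Nfkbid was 2.81 in WT-named replicate 1 and 3.20 in replicate 3, with an SD of 0.27 (n = 2). It was 6.24 and 6.10 in KO-named replicates 1 and 3, with an SD of 0.099 (n = 2). The gap between the groups was thus larger than the spread within either, whichever scaling is used between libraries. This ratio was chosen after the values were seen, among 8 computed of which 5 did not overlap between the groups, and is given without a test. Bcl3, the remaining atypical member, held at most 0.146% of the TPM sum, and no ratio was computed for it. The smallest exact permutation p that 2 against 2 libraries allow is 0.333.

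**Figure D4:**
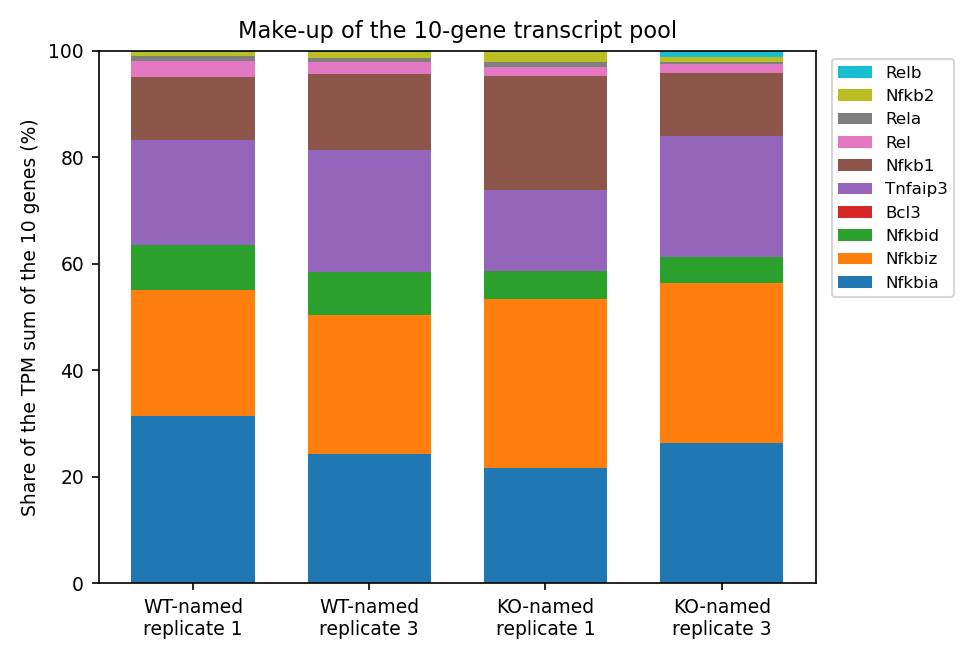
Share (%) of the TPM sum of the 10 genes taken by each gene, with 1 stacked bar per library. Nfkbia, Nfkbiz and Tnfaip3 fill most of every bar, the Nfkbid share is smaller in both KO-named libraries, and the Nfkb1 share is largest in KO-named replicate 1.

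Of the 5 subunit ratios computed, 3 did not overlap between the groups and 2 did. All 3 have Nfkb1 as the numerator, so they are not separate results. In TMM-scaled CPM 39.8% of all tested genes did not overlap, and no such share was computed for ratios. Nfkb1 exceeded Rela in TPM by 12.7 and 19.5 times in WT-named replicates 1 and 3, and by 22.7 and 24.9 times in KO-named replicates 1 and 3, without overlap. It exceeded Rel by 3.99 and 6.61 times against 13.2 and 7.17 times in the same order, also without overlap. Over Nfkb2 the ratio was lower in the KO-named libraries, at 11.2 and 12.5 against 15.1 and 13.8. These separations are given without a test, and the Nfkb1 level was highest in KO-named replicate 1. The ratio of Rel to Rela was 3.18 and 2.95 in the WT-named libraries, and 1.72 and 3.47 in KO-named replicates 1 and 3, which enclose them. For the alternative pathway pair, the ratio of Nfkb2 to Relb was 3.35 and 3.25 in WT-named replicates 1 and 3, 8.46 in KO-named replicate 1 and 0.875 in KO-named replicate 3. For both of these ratios the KO-named libraries were the highest and the lowest.

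The rest of the pathway was followed in 4 lists, and no gene of them passed the test. Of receptors and adaptors upstream, 18 of 26 were tested, with 0 at an adjusted p below 0.05, 0 higher and 1 lower at an unadjusted p below 0.05, and a median log2 fold change of −0.33, against 3.47% higher, 6.34% lower and a median of 0.05 among all tested genes. The highest expressed were Il1rl1, which encodes ST2, at 0.05 (SE 0.35), Tnfrsf18, the co-stimulatory receptor GITR, at −0.26 (SE 0.43), and Il18rap, a chain of the interleukin-18 receptor, at −0.85 (SE 0.64), with edgeR adjusted p-values of 0.987, 0.934 and 0.779. Tnfrsf4, the co-stimulatory receptor OX40, was the 1 lower gene. It was at 35.1 and 9.60 CPM in WT-named replicates 1 and 3, and at 0 and 0.117 CPM in KO-named replicates 1 and 3, without overlap (edgeR adjusted p = 0.433). Of the 18 genes 5 lay below in both KO-named libraries and 0 above, against 22.1% and 17.8% of all tested genes.

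Of the kinases and scaffolds that activate NF-kappaB, 20 of 22 were tested, with 0 at an unadjusted p below 0.05 in either direction and a median log2 fold change of −0.17. Map3k8, the kinase TPL2 that binds p105, was at 0.10 (SE 0.42), Tab2, an adaptor of the kinase TAK1, at −0.31 (SE 0.57), and Malt1, the paracaspase that cleaves A20, at −0.75 (SE 0.54), with edgeR adjusted p-values of 0.974, 0.943 and 0.759. Malt1 was lower in both KO-named libraries, with 203 and 309 CPM in the WT-named against 146 and 159 CPM in the KO-named replicates 1 and 3. Of the 20 genes 4 lay below in both KO-named libraries and 2 above, against 22.1% and 17.8% of all tested genes.

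Of other inhibitors and ubiquitin editors, 19 of 22 were tested, 0 higher and 1 lower at an unadjusted p below 0.05, with a median log2 fold change of −0.26. Birc3 and Birc2, the ubiquitin ligases cIAP2 and cIAP1, were at 0.53 (SE 0.38) and −0.49 (SE 0.52), and Tax1bp1, an adaptor of A20, at −0.11 (SE 0.42), with edgeR adjusted p-values of 0.755, 0.878 and 0.974. Birc3 lay above in both KO-named libraries, at 942 and 978 CPM against 544 and 786 CPM, and Birc2 below in both. Of the 19 genes 6 lay below in both and 1 above, against 22.1% and 17.8% of all tested genes. Commd1, whose product promotes turnover of RelA, was the 1 lower gene, at 66.8 and 28.3 CPM in WT-named replicates 1 and 3 and at 0.822 and 0 CPM in KO-named replicates 1 and 3 (edgeR adjusted p = 0.433).

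Of known NF-kappaB target genes, 34 of 39 were tested, 3 higher and 5 lower at an unadjusted p below 0.05, against 3.47% and 6.34% of all tested genes, and 0 at an adjusted p below 0.05. Their median log2 fold change was −0.31. In 13 both KO-named libraries lay below and in 5 above, where the shares over all tested genes were 22.1% and 17.8%. The target with the smallest p was Bcl2a1b, an anti-apoptotic BCL2 relative, at 330.4 and 549 CPM in WT-named replicates 1 and 3 and 76.0 and 118 CPM in KO-named replicates 1 and 3. Its log2 fold change was −2.18 (SE 0.54, edgeR adjusted p = 0.433), and its reads can be shared with its near-identical paralogs.

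Of the other targets named by the rule, Ptgs2 was higher by fold change and Cd83, Il5, Csf2, Il2ra and Cd69 were lower. The naming rule left out further targets at an unadjusted p below 0.05 by edgeR. Of these, Cflar and Myc were higher and Cd44 and Ccl4 lower. Cd83, an activation antigen, was at 53.9 and 30.6 CPM in WT-named replicates 1 and 3 and at 0.299 and 0.352 CPM in KO-named replicates 1 and 3. Il5, the eosinophil growth factor, was at −1.71 on the log2 fold change scale (SE 0.56). Ptgs2, which encodes the inducible cyclooxygenase, went the other way, at 61.1 and 10.6 CPM against 256 and 204 CPM. The edgeR adjusted p was 0.433 for each. The highest expressed targets, Csf2, Il2ra and Cd69, had log2 fold changes of −0.76 (SE 0.35), −0.19 (SE 0.35) and −0.87 (SE 0.49), with edgeR adjusted p-values of 0.513, 0.943 and 0.643.

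**Figure D5:**
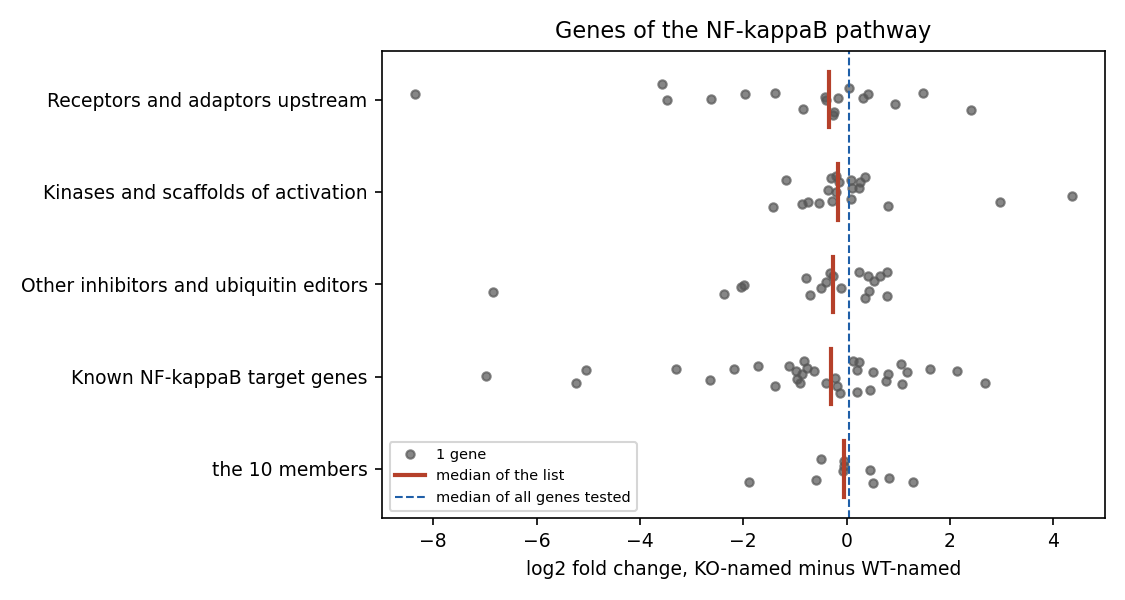
log2 fold change (KO-named minus WT-named) of each tested gene in 4 pathway lists and of the 10 genes, with the median of each (red) and of all tested genes (dashed). Medians lie between −0.33 and −0.05, and single genes spread far more widely than the medians.

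With library size alone the list medians were −0.68 for receptors and adaptors, −0.51 for kinases and scaffolds, −0.63 for other inhibitors and −0.63 for targets, where the median of all genes was −0.28. Without KO-named replicate 1 the median of receptors and adaptors was −1.22, and the others were −0.18, −0.12 and −0.50. That of all 9226 genes in that fit was −0.27, so kinases and other inhibitors then lay above it. Without KO-named replicate 3 the list medians were −0.52, −0.37, −1.29 and −1.02, in the same order, and that of all 9311 genes in that fit was −0.28.

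The mean profile of the 10 genes over the 4 libraries was nearly flat, but it combines unlike members. In KO-named replicate 1 Nfkb2 entered at 0.98 in centred log2 CPM and Bcl3, with a count of 0 there, at −2.85. The mean was not computed without Bcl3. Outside the family the 3 nearest genes among those with at least 20 CPM were Il2ra, the alpha chain of the interleukin-2 receptor, Sept7, a septin, and Celf2, an RNA-binding protein, at distances of 0.10, 0.11 and 0.11 in centred log2 CPM over 4 libraries. Of the members Tnfaip3 and Nfkbia were nearest to that mean, both at 0.24, and Bcl3 farthest, at 3.24, followed by Relb at 1.77.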

How the data were processed

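Total RNA of sorted adipose ILC2 was extracted with Trizol and sequenced from Smart mRNA-seq libraries, per the labels' protocols. Reads were placed on mm10, according to the submitters' processing notes. No source used here gives the sorting gate, aligner, counter or strandedness. The authors deposited estimated counts per gene, 20.0% to 21.6% of them not whole, which were rounded. The authors also deposited log2 fold changes with p-values and q-values from DESeq2, per the file headers. Another 12 columns with normalised values per sample were left out.

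Groups follow library names. Columns numbered 3 could be tied only to a group. Replicates differed far beyond sampling noise (chi-square over degrees of freedom of 242 and 361) and were kept apart. The test was edgeR 4.0.16 in R 4.3.3 (quasi-likelihood, TMM, filterByExpr, adjusted over 8753 genes). Its code was run on simulated data whose spread between replicates was set, not taken from these libraries. That run does not show how the test performs here. CPM are TMM-scaled. The SE is the fold change divided by the root of F. Alternatives used other scalings, no filter, DESeq2 1.42.0, limma 3.58.1 (voom), the replicate number as a block, and 1 library left out. The level of 3 counts, 0.138 to 0.224 CPM, covers counting error only.

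Members and lists were chosen with earlier results of these data known. The naming rule takes all members, the 3 highest expressed genes of each list and up to 4 at an unadjusted p below 0.05. TPM were computed from the counts and GENCODE M21 transcript lengths of 10619 genes (97.1%). Distances use log2(CPM + 0.5). Gene positions and promoters are RefSeq's on GRCm38.p6, the assembly mm10 names.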

Additional observations from a re-analysis of the deposited data

How the results depend on the processing

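No member passed an adjusted p of 0.05 in any of the 10 alternatives, over 100 fits of single genes. Of the 10 genes, Nfkb2, Rel, Nfkbiz, Nfkbid and Bcl3 kept their direction in all of them. With RLE factors Rela was at 0.034, Nfkbia at 0.0040 and Tnfaip3 at 0.019, the opposite sign. Leaving out 1 library gave −0.13 to 0.93 for Nfkb1, −0.78 to 0.43 for Rela, −0.068 to 1.98 for Relb, −0.11 to 0.0049 for Nfkbia, −0.25 to 0.22 for Tnfaip3 and 0.07 to 1.29 for Nfkb2. In these fits the median of all genes was 0.22 and 0.23 without WT-named replicates 1 and 3. It was −0.27 and −0.28 without KO-named replicates 1 and 3, so a sign against 0 is not one against that median. For Bcl3 the range was −10.17 to −0.87, its lower end set by the absence of KO-named counts without KO-named replicate 3. By library size alone Nfkbid (unadjusted p = 0.0334) and Rel (0.0465) passed an unadjusted p of 0.05, at log2 fold changes of −0.92 and −0.85 by edgeR, with adjusted p-values of 0.466 and 0.508. On that scale 845 of all 8753 tested genes did so, 685 of them lower in the KO-named libraries. Nfkbiz passed it by limma-voom (unadjusted p = 0.0390, adjusted p = 0.366), as did 1072 of 8753 genes. Relb was at 1.98 without KO-named replicate 1, and Bcl3 at −10.17 and Nfkb2 at 1.29 without KO-named replicate 3. Each of these 3 values rests on 1 KO-named library. Over all genes DESeq2 called 952, limma-voom 201 and edgeR with the replicate block 25, against 0, and 0 to 7 with 1 library left out. Genes at an unadjusted p below 0.05 numbered 1399 without the filter and 1684 by DESeq2, against 859, and 392 to 1489 with 1 library left out. The cause of these differences was not tested. The replicates share only a number, with a correlation over genes of same-numbered deviations of −0.0037. The block moved no call of a member.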
